A study of Mus musculus with 4 samples.

Results

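The matrix metalloproteinases (MMPs), the ADAMTS proteinases, the ADAMTS-like proteins and the tissue inhibitors of metalloproteinases (TIMPs) were examined in mouse lung. Members were all genes with at least 1 singly annotated probe set whose symbol begins with Mmp, Timp, Adamts or Adamtsl followed by a digit. This gave 42 genes, of 18193 with 1 symbol on the array: 18 MMPs, 15 ADAMTS genes, 5 ADAMTS-like genes and all 4 TIMPs. They were read by 78 probe sets, and each gene was represented by the probe set with the highest mean. Within these families, genes were taken by name and probe sets by brightness, but the families were chosen with earlier results of these data known.

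The lungs came from mice of the B6/J strain, 2 wild type and 2 labelled IKKa floxed, with 1 Affymetrix array each. A floxed allele is flanked by loxP sites, which Cre recombinase cuts out, and IKKα is a kinase of the complex that activates NF-κB transcription factors. Both groups were given an adenovirus carrying Cre through the windpipe, and lungs were collected 4 months later, so the comparison is of floxed with wild type lungs after the same virus. The labels give neither the age or sex of the mice, nor the number of floxed alleles, nor which cells took up the virus, and all RNA was from whole lung tissue. They also do not say that each array is a separate animal, so the spread behind the p-values may be technical. The transcript of the targeted kinase is not analysed here.

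MMPs are zinc enzymes that cut collagens, elastin and other matrix proteins. Most are secreted as inactive precursors, and TIMPs block the active enzymes by filling the catalytic cleft. ADAMTS enzymes are a related family with thrombospondin repeats that cut proteoglycans, procollagens and other secreted proteins, while ADAMTS-like proteins lack the catalytic domain. In lung, these enzymes are known for remodelling of alveolar walls, and macrophage elastase for its part in emphysema models.

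Median intensities were 32.0 to 34.2 on the 4 arrays, in the linear units of the deposited table. Across the genes tested, arrays of a group correlated at r = 0.991 for wild type and 0.987 for floxed, and between the groups r was 0.972 to 0.976; these are correlations across genes, which are not independent replicates. Alveolar epithelial markers were all above the filter on low intensity (10 of 10) and summed to 53706 to 54448 in wild type and 59346 to 64989 in floxed lungs. Xist, which is transcribed from the inactive X chromosome of female cells, read 22.9 and 31.8 on the wild type arrays against 4246 and 4629 on the floxed ones. Genotype and this sex pattern cannot be told apart in any comparison given here. The Gapdh 3′ to 5′ ratio, which rises as RNA breaks down, read 1.10 and 1.18 for wild type against 1.44 and 1.68 for floxed, and its part in the results was not tested. Heart muscle markers were higher in wild type (summed intensity 4970 and 7234, against 629 and 778), with 8 of 10 lower in the floxed lungs by the test described next. Among the 8, Sln, Ryr2 and Myh6 passed the filter only through their wild type arrays. In such bulk tissue, fewer cells of a type and less RNA per cell cannot be told apart.

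The strongest differences among the members lay in 1 stretch of chromosome 9, where RefSeq (GRCm38.p6) places 10 MMP genes next to each other with no other protein-coding gene between them. They run in the order Mmp13, Mmp12, Mmp1b, Mmp3, Mmp1a, Mmp10, Mmp8, Mmp27, Mmp20 and Mmp7, and 9 of them are members here (Mmp27 is not analysed). Mmp12 and Mmp13, which lie side by side, rose in the floxed lungs, while Mmp3, separated from Mmp12 by Mmp1b alone, was the member with the lowest log2 fold change. The RefSeq windows from 250 bases before to 50 bases after the annotated starts of these 3 genes are shown because the 3 gave the largest differences. Each is 300 bases long, from the plus strand of GRCm38.p6, and capitals mark matches to TGANTCA, the binding sequence of AP-1, a transcription factor long known to act on MMP genes. Mmp12 has 2 annotated starts, and both windows are printed. The windows are chr9:7272264-7272563 for Mmp13, chr9:7344147-7344446 and chr9:7347124-7347423 for Mmp12, and chr9:7445572-7445871 for Mmp3.
Mmp13: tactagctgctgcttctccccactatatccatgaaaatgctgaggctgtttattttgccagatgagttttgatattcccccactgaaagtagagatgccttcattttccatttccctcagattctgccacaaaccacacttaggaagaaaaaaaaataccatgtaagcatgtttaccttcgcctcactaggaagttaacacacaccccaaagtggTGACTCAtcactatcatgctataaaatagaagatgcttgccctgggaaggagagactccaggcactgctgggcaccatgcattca
Mmp12, start 1: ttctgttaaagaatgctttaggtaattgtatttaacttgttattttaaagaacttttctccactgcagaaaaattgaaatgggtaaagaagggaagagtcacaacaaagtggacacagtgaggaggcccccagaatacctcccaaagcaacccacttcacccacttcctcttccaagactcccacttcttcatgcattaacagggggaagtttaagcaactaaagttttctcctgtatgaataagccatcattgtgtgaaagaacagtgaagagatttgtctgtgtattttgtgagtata
Mmp12, start 2: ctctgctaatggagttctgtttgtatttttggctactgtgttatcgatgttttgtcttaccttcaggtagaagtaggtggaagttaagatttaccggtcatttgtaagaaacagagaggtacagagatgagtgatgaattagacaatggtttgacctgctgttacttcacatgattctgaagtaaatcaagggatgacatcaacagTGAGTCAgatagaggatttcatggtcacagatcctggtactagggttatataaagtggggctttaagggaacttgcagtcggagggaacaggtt
Mmp3: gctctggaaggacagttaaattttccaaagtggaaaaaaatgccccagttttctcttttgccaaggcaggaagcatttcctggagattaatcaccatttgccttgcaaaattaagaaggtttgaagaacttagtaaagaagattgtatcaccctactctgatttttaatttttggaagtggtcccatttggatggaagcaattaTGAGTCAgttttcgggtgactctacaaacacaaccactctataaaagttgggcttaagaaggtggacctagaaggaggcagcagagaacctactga

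With the annotated start counted as base 0, the AP-1 match lay at -35 to -29 in Mmp13, at -44 to -38 in the Mmp12 window of start 2, and at -46 to -40 in Mmp3. The first Mmp12 window had no match. Of the 42 members, 27 had a RefSeq window. Searched on both strands, TGANTCA was found in 8 of the 27 genes, and all 8 were among the 9 with a window in the chromosome 9 stretch (Mmp8 was the exception there). It was found in 7.81% of all 32851 windows of this length. TATAAA, the core letters of the TATA box, stood in all 9 of those genes and in 2 of the others, Adamts1 and Adamtsl2, against 13.6% of all windows. Its place varied: the Mmp8 match was on the opposite strand at -3 to 2, and the Mmp12 match lay after start 2, at 4 to 9. In Mmp3 it lay at -7 to -2. A NF-κB sequence matched 1 member, Adamtsl2, and 4.79% of all windows. The PEA3 sequence AGGAAG, bound by ETS factors, matched 12 of the 27 genes and 35.4% of all windows. The genes with an AP-1 match thus included Mmp12 and Mmp13, Mmp3, and 5 that were below the filter. A match describes letters in a window, not binding.

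Groups were compared gene by gene with limma on log2(intensity + 16), and a gene was called at an adjusted p under 0.05 (Benjamini-Hochberg) over all 12735 genes with a mean intensity of at least 21.0. The added 16 makes the fold changes of dim genes smaller than those of their intensities. Of all genes tested, 1.77% were called, 1.01% higher and 0.762% lower in the floxed lungs. Of the 42 members, 30 were tested, and 2 of them (6.67%), Mmp12 and Mmp13, were called, both higher. Mmp13 passed the filter only through its floxed arrays, so that share is not read against the share over all genes. At an unadjusted p under 0.05 there were 6 of 30 members (20%), Mmp13 among them, and 14.3% of all genes. The members' median log2 fold change was 0.02, with 16 above and 14 below 0, beside 4.73e-05 for all genes. Groups did not overlap for 12 of the 30 members (40%), 6 in each direction, nor for 45.8% of all genes (23.6% higher and 22.2% lower in floxed). The median size of the difference, whatever its sign, was 0.17 for the members and 0.14 for all genes. Mmp13 counts in each of these member values as well, so they are likewise not read against those over all genes.

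**Figure D1:**
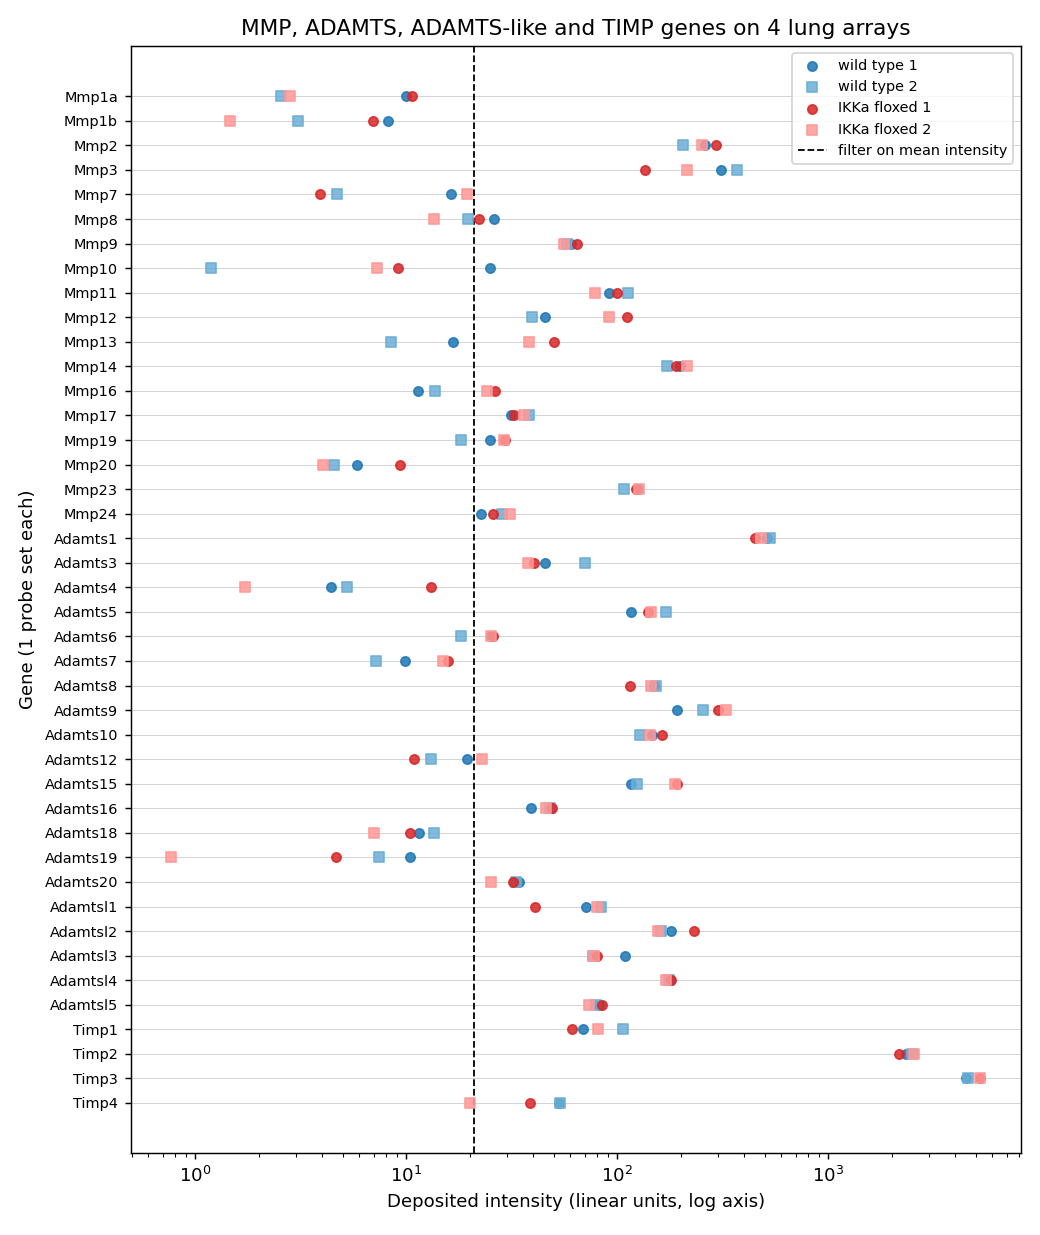
Deposited intensity (log axis) of each of the 42 genes, by its brightest probe set, on the 2 wild type (blue) and 2 IKKa floxed (red) arrays; the dashed line is the filter at a mean intensity of 21.0. Mmp12, Mmp13 and Adamts15 show both floxed arrays to the right of both wild type arrays, Mmp3 and Timp4 show them to the left, and 12 genes have their mean to the left of the line.

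The metalloelastase Mmp12, made chiefly by macrophages and named for its action on elastin, read 45.3 and 39.6 in wild type lungs, against 111 and 90.9 in floxed. Both floxed arrays were higher than both wild type arrays, and group means were 42.5 ± 4.08 and 101 ± 14.1 (SD, n = 2 each). The log2 fold change was 1.00 ± 0.14 (SE; 2.00-fold, limma adjusted p = 0.0234). The call was lost without wild type replicate 2 (log2 fold change 0.93, limma adjusted p = 0.0824) and without floxed replicate 1 (0.87, limma adjusted p = 0.0535). It was also lost with a pseudocount of 1 (limma adjusted p = 0.0552), with no filter on low intensity (0.101) and with every probe set fitted on its own (0.0503), while the difference stayed above 0 under each alternative in which the gene was tested (a filter at the 50th percentile removes it).

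The collagenase Mmp13, which cuts fibrillar collagen, read 16.6 and 8.48 in wild type lungs, against 49.97 and 38.3 in floxed. The groups did not overlap, and the wild type mean of 12.6 ± 5.77 (SD, n = 2) was below the filter, so the gene entered the test through its floxed arrays, at 44.2 ± 8.22 (SD, n = 2). The log2 fold change was 1.08 ± 0.18 (SE; 2.12-fold, limma adjusted p = 0.0424). Because the gene is dim, that size depended on the pseudocount, running from 0.50 with 64 to 1.79 with 1. It missed the threshold without wild type replicate 2 (0.88, limma adjusted p = 0.109), without floxed replicate 1 (0.94, limma adjusted p = 0.0952), with a pseudocount of 1 (0.118), with no filter (0.153) and with every probe set on its own (0.0794). The other collagenases, Mmp1a, Mmp1b and Mmp8, were all below the filter, with means of 6.49, 4.92 and 20.3, and Mmp8, the neutrophil collagenase, was the member just outside it.

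Stromelysins act on proteoglycans, laminin and other non-collagen matrix, and can activate other MMP precursors. Mmp3 (stromelysin 1) read 310 and 367 in wild type lungs, against 136 and 213 in floxed. The floxed arrays were both lower and lay apart from each other. Means were 339 ± 40.5 and 174 ± 54.8 (SD, n = 2), and the log2 fold change of -0.92 ± 0.21 (SE) did not pass (limma adjusted p = 0.106, 95% interval -1.43 to -0.42 without adjustment). The threshold was met without floxed replicate 2 (-1.22, limma adjusted p = 0.0197), with a pseudocount of 64 (0.0217) and when eBayes used a robust prior with a trend on intensity (0.0248). Mmp11 (stromelysin 3) overlapped between groups, at 91.6 and 113 against 99.4 and 78.1 (log2 fold change -0.18 ± 0.16 SE). Mmp10 (stromelysin 2) and Mmp7 (matrilysin) had means of 10.6 and 11.1, below the filter.

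**Figure D2:**
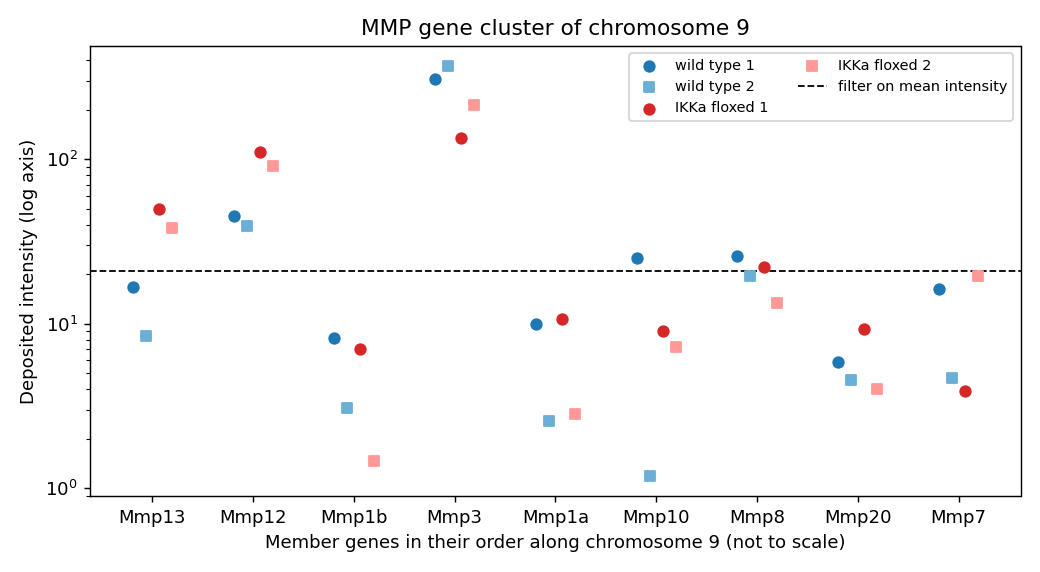
Intensity (log axis) on the 4 arrays of the 9 MMP genes of the chromosome 9 stretch, in chromosome order and not to scale. Mmp13 and Mmp12 are higher on both floxed arrays and Mmp3 lower, while the other 6 genes lie near or below the dashed filter line, with overlapping groups.

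Both gelatinases, which digest denatured collagen and basement membrane collagen, overlapped between the groups. Mmp2, a product of stromal cells, read 259 and 206 in wild type lungs, against 293 and 252 in floxed. Its log2 fold change was 0.22 ± 0.15 (SE; limma adjusted p = 0.587, 95% interval -0.15 to 0.59), a second probe set gave 0.24, and leaving out wild type replicate 2 gave 0.063. Mmp9, abundant in neutrophils, read 60.5 and 57.6 against 64.7 and 55.8, with a log2 fold change of 0.02 and an interval of -0.28 to 0.32. An interval of this width leaves room for modest differences in either direction.

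Among membrane-type MMPs, which are anchored at the cell surface, none of 3 tested was called by limma, and 0 had an unadjusted p under 0.05 (log2 fold change -0.01 to 0.12). Mmp14, the activator of the Mmp2 precursor, read 198 and 172 in wild type lungs, against 191 and 215 in floxed. Its groups overlapped, with a log2 fold change of 0.12 ± 0.13 (SE; interval -0.20 to 0.44). Mmp16 had a mean of 18.9, below the filter, with 11.4 and 13.7 in wild type lungs, against 26.3 and 24.1 in floxed on its brightest probe set, and 3 dimmer probe sets. Mmp19 and Mmp23 were the members tested outside these groups. Mmp19 read 24.8 and 18.3 against 29.4 and 29.1, with no overlap (log2 fold change 0.27 ± 0.13 SE, limma adjusted p = 0.425, and 0.15 without wild type replicate 2). Mmp23 overlapped (0.09 ± 0.13 SE), and its other probe set pointed the other way (-0.39).

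**Figure D3:**
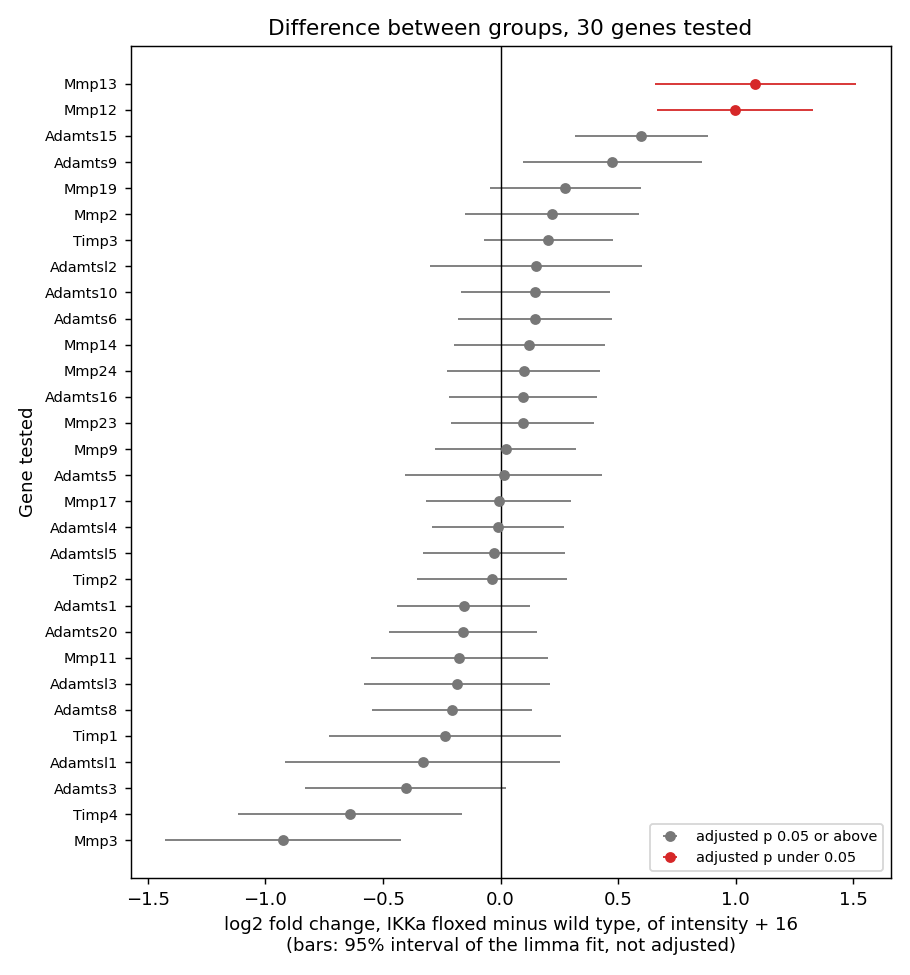
log2 fold change (IKKa floxed minus wild type) of the 30 members tested, with 95% intervals of the limma fit that are not adjusted for the number of genes; red marks an adjusted p under 0.05. Mmp13 and Mmp12 stand at 1.08 and 1.00, Mmp3 is lowest at -0.92, and 25 members lie within 0.5 of 0 in either direction.

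No ADAMTS gene passed the test (0 of 10 tested by limma, 2 at an unadjusted p under 0.05). The 2 were Adamts15 and Adamts9, both of the branch that cuts the proteoglycans aggrecan and versican. Adamts15 read 116 and 124 in wild type lungs, against 192 and 187 in floxed. Both groups were tight and lay apart, at 120 ± 5.67 and 189 ± 3.36 (SD, n = 2). Its log2 fold change of 0.60 ± 0.12 (SE; 1.51-fold) had a limma adjusted p of 0.0684. It passed with a pseudocount of 64 (limma adjusted p = 0.0325), a filter at the 50th percentile (0.0333), an intensity trend and robust prior (0.0399) and the mean of all probe sets (0.0462), and had an adjusted p of 0.177 with no filter.

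Adamts9 read 193 and 255 in wild type lungs, against 301 and 329 in floxed, with no overlap. The log2 fold change was 0.47 ± 0.16 (SE; limma adjusted p = 0.242), its other probe sets gave 0.25 and 0.08, and the difference was 0.29 without wild type replicate 1 and 0.27 with probe sets averaged. Adamts1, the brightest of the branch, read 512 and 528 against 450 and 480. It was lower on both floxed arrays, by a log2 fold change of -0.16 ± 0.12 (SE; interval -0.44 to 0.13). Adamts8 read 150 and 153 against 115 and 145 (-0.21 ± 0.14 SE), also without overlap but at -0.057 without floxed replicate 1, and Adamts20 was -0.16. Adamts5, an aggrecanase of cartilage, overlapped (0.01 ± 0.18 SE), and Adamts4, the other main aggrecanase, was below the filter at a mean of 6.11. Of the 6 tested genes of this branch, 3 were above and 3 below 0.

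Adamts3, which removes the amino-terminal propeptide of procollagens, read 45.2 and 70.2 in wild type lungs, against 40.1 and 37.7 in floxed. The groups lay apart mainly through wild type replicate 2, without which the log2 fold change of -0.40 ± 0.18 (SE; limma adjusted p = 0.375) became -0.16. The other ADAMTS genes tested, Adamts6, Adamts10 and Adamts16, ranged from 0.10 to 0.15 with overlapping groups. Adamts10, an enzyme linked to fibrillin microfibrils, read 146 and 128 against 164 and 143. Adamts7, Adamts12, Adamts18 and Adamts19 were below the filter, with means of 5.81 to 16.6. Of the ADAMTS-like genes, all 5 were tested, none was called by limma, and 0 had an unadjusted p under 0.05. They overlapped between groups in every case, with a median of -0.03 and a range from -0.33 to 0.15. Adamtsl2, which binds a latent form of TGF-β, read 179 and 162 against 232 and 156 (0.15 ± 0.19 SE). Adamtsl1 read 70.8 and 83.5 against 40.7 and 80.1 (-0.33 ± 0.24 SE), while another of its probe sets stood at 0.57. That other probe set passed the filter only through its floxed arrays (27.4 and 30.5, against 12.8 and 15.9 in wild type).

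The 4 TIMPs did not pass the test (0 of 4 by limma, 1 at an unadjusted p under 0.05). Timp4, an inhibitor known from heart and adipose tissue, was that 1. It read 52.7 and 53.5 in wild type lungs, against 38.5 and 20.1 in floxed, with both floxed arrays lower and far apart. Means were 53.1 ± 0.559 and 29.3 ± 13.03 (SD, n = 2), and the log2 fold change was -0.64 ± 0.20 (SE; 1.56-fold, limma adjusted p = 0.213). A second probe set gave -0.77, with floxed replicate 1 the lower of the floxed arrays there (7.23 against 17.8 for floxed replicate 2). Timp4 met the threshold with the mean of its probe sets (-0.71, limma adjusted p = 0.0255) and without floxed replicate 1 (-0.94, limma adjusted p = 0.0348), and stood at -0.34 without floxed replicate 2.

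Timp3, which binds to matrix and also inhibits ADAMTS enzymes, read 4509 and 4577 in wild type lungs, against 5225 and 5242 in floxed. Replicates were close and the groups did not overlap, but the log2 fold change was 0.20 ± 0.12 (SE; limma adjusted p = 0.495, interval -0.07 to 0.48). Its 4 probe sets ran from -0.16 to 0.20, and the difference was 0.065 after quantile normalization and 0.048 with probe sets averaged. Timp2, which takes part in activation of Mmp2 at the cell surface, read 2329 and 2483 against 2162 and 2544. It overlapped, with a log2 fold change of -0.04 ± 0.13 (SE; interval -0.36 to 0.28) and 5 probe sets above the filter between -0.41 and 0.19. Timp1, an inducible inhibitor encoded on the X chromosome, read 68.9 and 106 against 60.9 and 81.3. It also overlapped (-0.24 ± 0.21 SE, limma adjusted p = 0.666, interval -0.73 to 0.26), and it turned to 0.03 without wild type replicate 2.

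**Figure D4:**
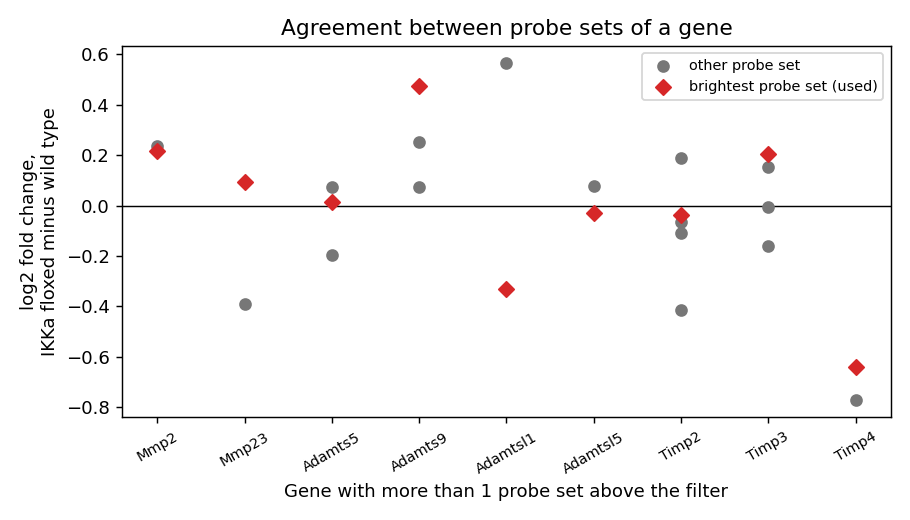
log2 fold change (IKKa floxed minus wild type) of every probe set above the filter, for the 9 members that have more than 1; red diamonds are the brightest probe sets, which represent the genes. Probe sets of Mmp2, Adamts9 and Timp4 lie on 1 side of 0, and those of the other 6 genes lie on both. The dimmer probe sets of Timp4 and Adamtsl1 passed the filter only through the group in which they were higher.

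Of the 9 members with more than 1 probe set above the filter, 3 had all of them in 1 direction and 6 did not. The dimmer Timp4 probe set passed the filter only through its wild type arrays, and the dimmer one of Adamtsl1 only through its floxed arrays. Their directions are therefore no check on the brightest probe sets. Mmp12, Mmp13, Mmp3 and Adamts15 have 1 probe set each, so their differences could not be checked within the array.

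Cell type markers were read on the same arrays beside these genes, and their part in the differences was not tested. For the counts of markers called, here and in the next 2 paragraphs, the shares over all genes were 1.01% higher and 0.762% lower in the floxed lungs. Of 12 alveolar macrophage markers, 1 rose (Marco, a scavenger receptor, log2 fold change 1.80) and 1 fell (Fabp4, a fatty acid binding protein, -1.13). Fabp4 is on the adipose list as well. The summed intensity of the 12 was 8809 to 9047 in wild type and 11533 to 11624 in floxed lungs. Without Chil3, also left out after seeing the data, the sums were 4067 and 3970 in wild type lungs, against 4400 and 4340 in floxed. Of 13 markers of interstitial macrophages and monocytes, 3 rose (C1qb, Fcgr1 and Fcgr4) and 1 fell (F13a1), with sums of 7194 to 7297 and 8687 to 9052. Leaving out single arrays ended the calls of C1qb and Fcgr1 in 3 of 4 cases each. The largest rises on these lists were 3.48-fold for Marco, 2.58-fold for Fcgr4 and 2.06-fold for Fcgr1. Other markers went the other way or differed little. Fabp4 and F13a1 were 2.19- and 2.23-fold lower, and Siglecf, Pparg, Csf1r and Car4 were 1.13-, 1.14-, 1.16- and 1.19-fold higher. Of the 13 interstitial macrophage and monocyte markers, 10 were above 0 and 9 had an unadjusted p under 0.05, with a median log2 fold change of 0.53. The 12 alveolar macrophage markers were more mixed, with 8 above and 4 below 0 and a median of 0.18. Of 9 neutrophil markers, 5 were below the filter, while S100a8 and S100a9 had means of 444 and 253 with overlapping groups. Of the 4 tested, Ltf fell (-1.08, a call kept in 1 of 4 cases when single arrays were left out) and none rose.

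Fibroblast markers, read beside Mmp3, summed to 9954 to 10283 in wild type and 8426 to 8738 in floxed lungs. Without Dcn, a sum taken after seeing the data, the sum of the other 10 was not lower in floxed lungs, coming to 7057 and 7005 in wild type lungs, against 7256 and 7596 in floxed. Of 11 tested, 4 were above and 7 below 0, and Thy1 rose (log2 fold change 0.84, with the call lost in 3 of 4 such cases) and Dcn fell (-1.40). Markers of smooth muscle and pericytes summed to 4855 to 5369 against 3372 to 3610. Of 9, Acta2 and Myh11 fell (-0.78 and -1.14), though Acta2 lost its call in 4 of 4 such cases and Myh11 in 3, and with probe sets averaged they stood at -0.25 (limma adjusted p = 0.392) and -0.72. Beside Timp4, the 10 heart muscle markers included 8 that fell, led by Myl7, an atrial light chain (-4.92). Sln, Ryr2 and Myh6, among the 8, passed the filter only through their wild type arrays (floxed means 12.4, 16.4 and 20.3). Of 7 adipose markers, 4 fell, among them Fabp4, which is also on the alveolar macrophage list. Retn and Adipoq, also among the 4, passed the filter only through their wild type arrays (floxed means 15.3 and 16.6). Adipose markers summed to 1323 to 1665 in wild type and 496 to 542 in floxed lungs, or 0.33 and 0.36 of the wild type mean. Much of that difference came from Car3. Without it, a sum taken after seeing the data, they came to 859 and 737 in wild type lungs, against 483 and 503 in floxed. The heart sums were 0.13 and 0.10 of their wild type mean, and Timp4, by its brightest probe set, was 0.73 and 0.38 of its own. The heart and adipose sums were low on both floxed arrays. Timp4 differed between these arrays by its brightest probe set (38.5 and 20.1), but its second probe set had the opposite order (7.23 and 17.8). The part of these tissues in the Timp4 difference was not tested.

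Markers of other cells differed as well, and their part was likewise not tested. Of 9 tested genes of T and cytotoxic cells, all were above 0 and 4 rose (Ccl5, Cd3g, Cd8b1 and Nkg7). Gzmk, tested but not called, passed the filter only through its floxed arrays (wild type mean 17.5). Of 7 plasma cell genes, Jchain and Mzb1 rose. Airway secretory genes included 6 of 9 that fell: Bpifa1, Bpifb1, Muc5b, Reg3g, Scgb3a1 and Tff2. Of these, Muc5b, Reg3g and Tff2 passed the filter only through their wild type arrays (floxed means 13.1, 3.23 and 16.2). All 7 ciliated cell genes were below 0, with 0 called by limma and 4 at an unadjusted p under 0.05. Alveolar epithelium (10 tested, 2 at an unadjusted p under 0.05), endothelium (9 tested, 0) and mesothelium (6 tested, 0) gave 0 calls by limma.

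**Figure D5:**
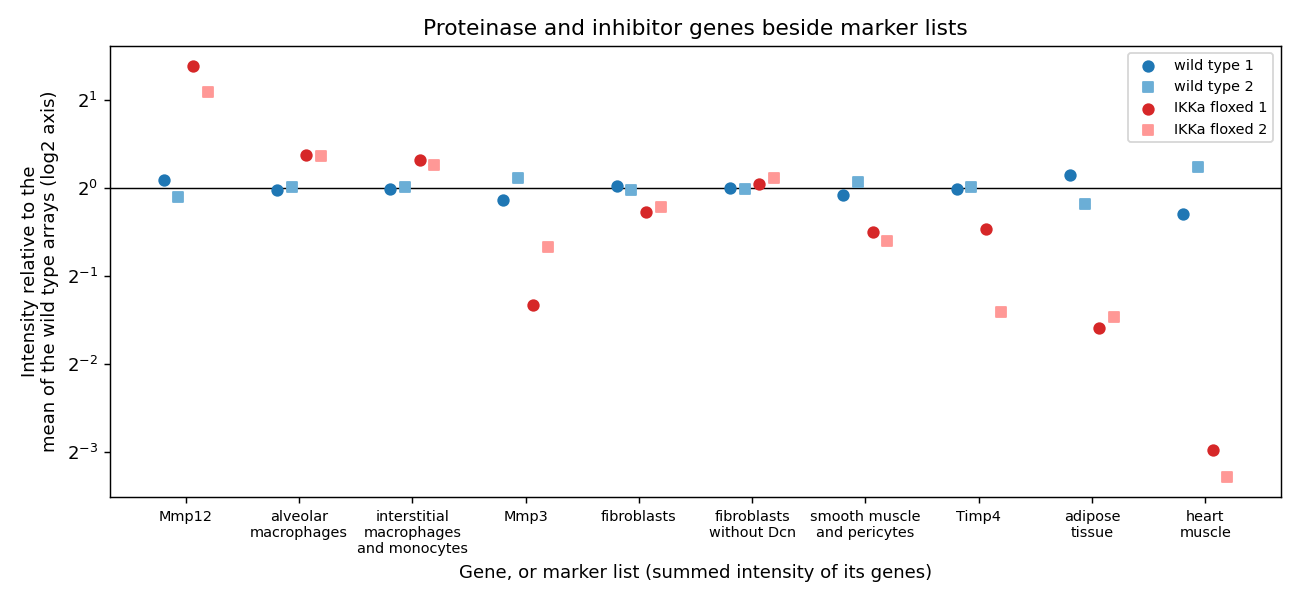
Intensity of 3 member genes, and summed intensity of marker lists, on each array relative to the mean of the wild type arrays (log2 axis). On the floxed arrays Mmp12 lies at 2.61 and 2.14, the alveolar macrophage list at 1.30 and 1.29, and the interstitial macrophage and monocyte list at 1.25 and 1.20. Single markers, not drawn, went both ways: Marco rose, while Fabp4 and F13a1 fell. On these arrays Mmp3 lies at 0.40 and 0.63, and fibroblast markers are below 1 with Dcn and above it without. The heart list and the adipose list, which includes Car3, lie below Timp4 there, as read by its brightest probe set.

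Other genes of matrix proteolysis mostly did not pass. Of 10 tested regulators, among them the plasminogen activator Plat, the urokinase receptor Plaur and the convertase Furin, none was called by limma (1 at an unadjusted p under 0.05), with a median of -0.10 and a range from -0.33 to 0.12. Reck, a membrane-bound MMP inhibitor, read 872 and 865 against 766 and 958. Related metalloproteinases outside the families gave 0 calls of 15 by limma and 3 at an unadjusted p under 0.05. Among them Adam28, a lymphocyte metalloproteinase, read 79.0 and 80.6 in wild type lungs, against 46.0 and 27.7 in floxed (-0.88 ± 0.18 SE, limma adjusted p = 0.0779). Of 8 AP-1 subunits tested, none was called by limma (2 at an unadjusted p under 0.05), 7 lay above 0 and the median was 0.15. Fos read 414 and 294 in wild type lungs, against 545 and 550 in floxed, without overlap (0.63 ± 0.17 SE, limma adjusted p = 0.165).

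Of 25 matrix substrates tested, 1 rose and 1 fell, and the median was 0.02. Mfap4, a protein of elastic fibres, rose from 112 and 98.9 to 305 and 440 (log2 fold change 1.66 ± 0.19 SE, 3.15-fold, limma adjusted p = 0.00969). Dcn, the collagen-binding proteoglycan decorin, fell from 3227 and 2949 to 1170 and 1142 (-1.40 ± 0.12 SE, 2.65-fold, limma adjusted p = 0.00394), but missed the threshold with the mean of its probe sets (-0.70, limma adjusted p = 0.0949). Eln, which encodes the elastin that Mmp12 cuts, overlapped between groups, at 98.3 and 107 against 95.2 and 105 (-0.03 ± 0.12 SE). Col1a1 and Col3a1, fibrillar collagens that Mmp13 can cut, stood at 0.03 ± 0.16 and -0.21 ± 0.15 (SE), with overlapping groups in both.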

How the data were processed

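Values were linear intensities, 1 per array for every probe set, as deposited. Affymetrix Expression Console is named in the submitters' processing notes. For its version, algorithm and background correction: not given in the sources used here. The authors' values had a mean, after trimming 2% from each end, of 150.001 on every array, so they were scaled before deposit, and the deposited intensity scale was kept (array medians on the log2 scale differed by 0.0649, under the limit of 0.1). Groups and replicate numbers came from the sample titles.

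Of 45101 probe sets, 64 array controls, 932 with several symbols and 9160 without one were left out, leaving 34945. Symbols came from the platform annotation, updated through RefSeq (GRCm38.p6; 34741 matched, 0 changed). Intensities were analysed as log2(intensity + 16). Genes under the 30th percentile of mean intensity (21.0) were not tested. The test was limma 3.58.1 under R 4.3.3 (eBayes after lmFit, two-sided, no covariates, Benjamini-Hochberg). There were 2 residual degrees of freedom, and eBayes added 4.67. Exact permutation of 2 against 2 cannot give a p below 0.333 and was not used; only 2 arrays a group limit the precision. Intensities of different probe sets do not compare levels between genes.

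On simulated data for this comparison (12735 genes, 20 runs), 5.15% of genes changed 1.5-fold, 71.3% changed 2-fold and 98.8% changed 4-fold were recovered, with 5.60% false calls. The noise was drawn from the prior that limma fitted, alike at every intensity and independent between genes. A false call share near the threshold was thus built in, and the rates may not hold for dim genes such as Mmp13.

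Members and lists were chosen with earlier results of these data known. Given array by array were members called, the 6 tested members with the largest log2 fold change per direction, the 6 brightest, the TIMPs and the brightest tested member of each role; others, and single genes of other lists, are named for their role, by call or by size. Alternatives were the pseudocount, filter, normalization, prior, probe set rule, replicate block and leaving out each array.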

Additional observations from a re-analysis of the deposited data

How the results depend on the processing

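Over the alternatives, the count of genes called across the array was 110 with a pseudocount of 1, 362 with 64, 69 with no filter and 388 with a robust prior and intensity trend, against 225 as reported; leaving out 1 array gave 145 (without wild type replicate 2) to 251. Members called were 0 with a pseudocount of 1, with no filter and with every probe set on its own, 1 (Adamts15) with the filter at the 50th percentile, which removes Mmp12 and Mmp13, and 4 with a pseudocount of 64, with the robust prior and trend and with averaged probe sets, against 2 as reported. Leaving out 1 array gave 0 (without wild type replicate 2) to 3 members; without floxed replicate 1 the 1 call was Timp4. The members' median log2 fold change, 0.02 as reported, was 0.021 with a pseudocount of 1 and 0.0097 with 64. It was 0.053 with the 50th percentile filter, 0.056 after quantile normalization, 0.013 with averaged probe sets and 0.013 with every probe set on its own. With an array left out it ran from -0.0050 to 0.044. A different quantity, each array's median over members of log2 intensity centred per gene, had an SD of 0.0026 between replicate arrays. That SD comes from 2 arrays per group and is not a spread of the median fold change. Directions turned for 13 of the 30 tested members, none of them called. Averaged probe sets gave 0.20 for Adamtsl1, 0.024 for Adamtsl5, -0.15 for Mmp23 and -0.16 for Adamts16, and quantile normalization gave 0.011 for Adamtsl4, 0.026 for Adamtsl5 and 0.047 for Mmp17. With single arrays left out, Adamtsl1 ran from -0.71 to 0.048, Adamtsl2 from -0.11 to 0.41, Mmp23 from -0.0043 to 0.19, Mmp9 from -0.063 to 0.11, Mmp17 from -0.11 to 0.088, Mmp24 from -0.0050 to 0.20, Adamts5 from -0.23 to 0.25, Adamts16 from -0.017 to 0.21, Adamtsl3 from -0.40 to 0.030, Adamtsl4 from -0.053 to 0.027, Adamtsl5 from -0.12 to 0.061, Timp1 from -0.50 to 0.027 and Timp2 from -0.15 to 0.081. The cause was not tested, other than fewer genes or arrays where the setting removes them. With the replicate block, 198 genes and 2 members, Mmp12 and Mmp13, were called; same-numbered arrays did not deviate together (r = 0.0021 across genes), so the numbers are taken as names. Of 376 values of the 30 members under alternatives, 333 kept direction and side of the threshold, 10 lost the call, 9 gained one and 24 turned. A gene such as Mmp13 in wild type lay where intensity has no stated detection limit.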
